A study of Mus musculus with 12 samples.

Results

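The response to kainate was measured in the hippocampus of mutant mice without the transcription factors CREB and CREM, by setting 3 arrays of mutants injected with kainate against 3 arrays of mutants injected with saline. These are 6 of the 12 arrays of the series, and the other 6 hold controls under the same treatments. Arrays were assigned to groups by their titles, and all 12422 probe sets other than the manufacturer's controls entered the comparison. A probe set is a group of short probes that together read the RNA of a gene, and its value here is a log2 level after GCRMA, so that a difference of 1 is a doubling. All mice were littermates of 5 to 6 weeks, male and female, which had been kept alone in a cage and handled for 5 days. Kainate was given into the peritoneum at 20 mg/kg and the animals were killed after 1 hour, and the saline mice of each genotype are the comparison for it. The RNA on an array came from a pool of 3 animals, and the pool is the replicate. Loss of CREB and CREM is given by the title of the series. In which cells the genes were disrupted, by which allele or Cre line, and which alleles the controls carry are not given in the sources used here, and this limits what the mutants stand for. The tissue is bulk hippocampus, where fewer cells of a type and less RNA per cell cannot be told apart.

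Kainate is an agonist of ionotropic glutamate receptors and evokes seizures. Strong firing lets calcium into neurons and activates kinases that phosphorylate transcription factors already present in the nucleus, and a set of immediate early genes is then transcribed within minutes without new protein synthesis. CREB and its relatives CREM and ATF1 bind the cAMP response element in many of these genes, and serum response factor with its ETS-family partners binds the CArG box in others. Immediate early genes code for transcription factors such as Fos and Egr1, for phosphatases and RNA-binding proteins that end the signal, and for effectors that act at synapses or on neighbouring cells. CREM also gives rise to repressor forms.

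Kainate raised a small set of genes steeply in the mutants, and very few falls passed the threshold given next. Of 12422 probe sets, 37 passed an adjusted p of 0.05 (0.298%), with 33 higher after kainate (0.266%) and 4 lower (0.0322%), by limma with Benjamini-Hochberg adjustment. The 33 higher probe sets stand for 31 named genes, Junb among them with 2 probe sets, and 1 probe set with several gene symbols (160469_at), which changed by 3.06 (adjusted p = 0.0492). Of the 31 genes that rose, 29 did so by more than 1 on the log2 scale, 16 by more than 2 and 8 by more than 4. The median rise was 2.04 and the range was 0.60 to 5.92. All 3 kainate arrays lay above all 3 saline arrays for each of the 31 genes, and below them for each of the 4 that fell. Of all probe sets, 4.98% lay above and 7.39% below in this way. The named genes were chosen on these same arrays, which favours groups that do not overlap, so the shares are not comparable. Over all probe sets the median change was -0.02, and 95% of the changes lay between -0.47 and 0.46. An unadjusted p under 0.05 was reached by 780 probe sets (6.28%), of which 375 were higher (3.02%) and 405 lower (3.26%).

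**Figure D1:**
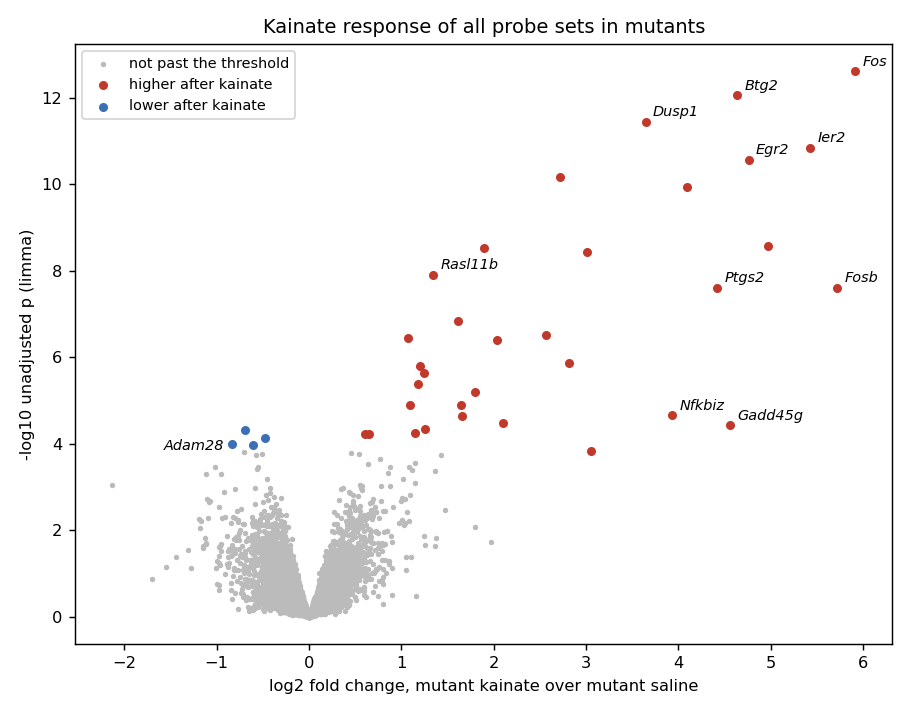
Change after kainate in the mutants (horizontal axis, log2 fold change, kainate over saline) against the -log10 of the unadjusted limma p (vertical axis) for 12422 probe sets, with those past an adjusted p of 0.05 in red where higher and blue where lower. The 33 higher probe sets reach 5.92 (Fos), while the 4 lower ones end at -0.83 (Adam28).

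Among the 12 arrays, correlations over all probe sets ran from 0.973 to 0.998. The third kainate array of the controls had a narrower spread of values than the others, with an interquartile range of 3.74 against 4.40 to 4.61. It enters the mutant comparison only through the estimate of spread that the 4 groups share, and without it 51 probe sets passed, 44 higher and 7 lower. The 4 arrays numbered replicate 1 deviated together from their group means (correlations of 0.368 to 0.848) and against replicates 2 and 3, and the labels name no batch. Within replicates 2 and 3 alone, 94 probe sets passed, 43 higher and 51 lower. Of the 31 genes, 23 kept their call there. The probe sets of Creb1 and Crem were dim in every group (percentiles 22.4 to 50.5 of mean level). Creb1 on its brightest probe set read 3.82 to 4.01 in control saline, 3.87 to 4.34 in control kainate, 3.82 to 3.94 in mutant saline and 3.80 to 3.87 in mutant kainate arrays, so the 4 groups overlap. Crem on its brighter probe set read 4.26 to 4.45 in control saline, 4.51 to 4.80 in control kainate and 4.12 to 4.33 on the 6 mutant arrays. The difference between genotypes after kainate did not pass there (-0.51, SE 0.10, limma adjusted p = 0.0889). Nor did it pass on the dimmer probe set, at 2.83 to 3.07 in controls and 2.60 to 2.66 in mutants (-0.34, limma adjusted p = 0.512). Whether these probes fall inside the deleted sequence is not known here, so the values do not check the labels.

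Immediate early transcription factors led the genes that rose. Of 26 measured members of a list of immediate early transcription factors, 12 rose and 0 fell, and the median change over all 26 was 1.09. Fos, the partner of Jun proteins in the AP-1 factor, read 7.17, 7.29 and 6.89 on the saline arrays and 13.19, 13.01 and 12.89 on the kainate arrays. This is a rise of 5.92 (SE 0.13), or 60.4-fold, with a limma adjusted p of 3.04e-09. The groups lie far apart, and 13.03 is the highest kainate mean of any gene that rose. Fosb, which codes for a relative of Fos and for the truncated form deltaFosB, went from 5.36, 4.43 and 3.79 to 10.35, 10.45 and 9.94, a rise of 5.72 (SE 0.39). Its saline arrays spread over more than 1 log2 unit while its kainate arrays stayed close. Ier2, a nuclear immediate early protein, went from 5.65, 5.69 and 5.45 to between 10.78 and 11.29 on the 3 kainate arrays, a rise of 5.43 (SE 0.18) or 43.1-fold. Egr2, a zinc finger factor of the Egr family, went from 6.23, 6.53 and 5.89 to 10.96, 11.11 and 10.86, a rise of 4.76 (SE 0.17).

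Nr4a1, an orphan nuclear receptor, read 6.77, 6.09 and 6.34 under saline and 10.49, 10.65 and 10.32 under kainate, a rise of 4.09 (SE 0.16) or 17.0-fold. Junb, an AP-1 subunit that dampens Jun activity, rose on both of its probe sets, by 3.02 (SE 0.17) on the brighter and by 4.97 (SE 0.27) on the dimmer. Atf3, a stress-induced member of the ATF family that acts mostly as a repressor, went from 4.53, 4.40 and 4.39 to 7.50, 7.35 and 6.92, a rise of 2.82 (SE 0.29, limma adjusted p = 9.37e-04). Its other probe sets did not pass, at 0.28 and 0.01. Klf4 rose by 2.10 (SE 0.31), Cebpb by 1.65 (SE 0.21), Egr1 by 1.62 (SE 0.13), Cebpd by 1.18 (SE 0.14) and Jun by 1.07 (SE 0.10). The latter rises start from unequal levels: Egr1 stood at 9.60 to 9.92 before kainate and reached 11.30 to 11.56, and Jun went from between 8.99 and 9.06 to as much as 10.19, so both were bright in mutants that had received saline. Among the 14 that did not pass, Ier3, which codes for a survival protein, changed by 1.43 (limma adjusted p = 0.053) and passed with the replicate number as a block (adjusted p = 0.0155). Klf2 changed by 1.11 (adjusted p = 0.0996, and 0.0372 with the block) and Nfil3, a repressor of the PAR bZIP target genes, by 1.04. Nr4a2 read 4.13, 5.19 and 5.47 under saline and 5.70, 5.47 and 5.52 under kainate, a difference of 0.63 (SE 0.36).

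Other probe sets of genes that rose were mostly dim and flat. Fos had another probe set low in the range of mean levels (percentile 12.3), with a change of 0.00, and the other probe sets of Egr1, Dusp6, Klf4, Tob1, Nfkbiz and Zfp36l2 changed by between -0.10 and 0.01. Of the 35 genes, 12 had more than 1 probe set.

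**Figure D2:**
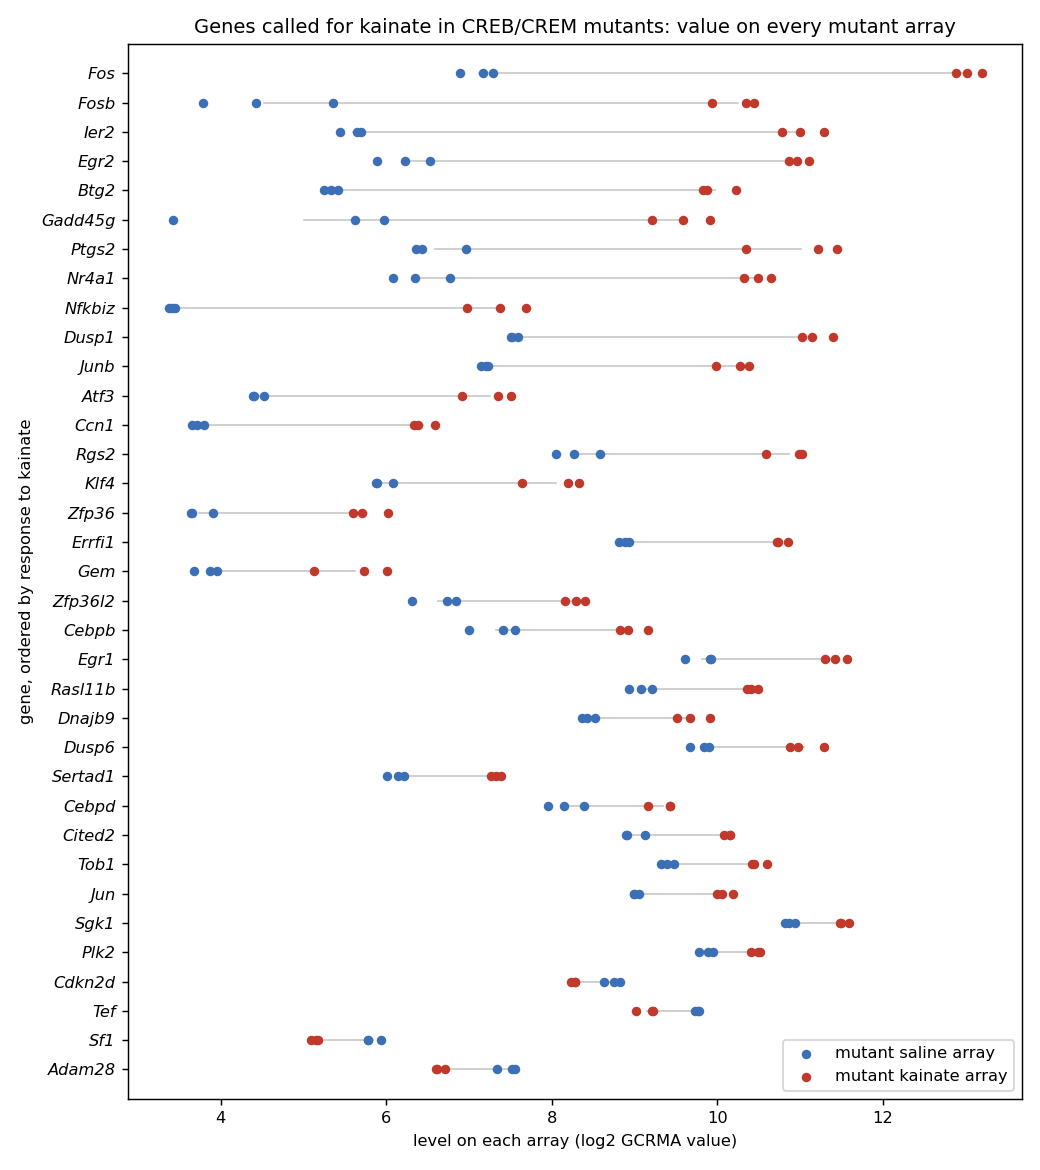
Level of each of the 35 genes past the threshold on every mutant array (horizontal axis, log2 GCRMA value), with saline arrays in blue and kainate arrays in red and genes ordered by response (vertical axis), and grey lines joining the group means. For all 31 genes that rose the red points lie to the right of the blue points, and for the last 4 they lie to the left.

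The promoters of these genes were read for the elements that CREB and serum response factor bind, since the mutants had lost CREB and CREM. RefSeq (GRCm38.p6) gave promoters for 25 of the 31 genes that rose, taken as the 250 bases before each annotated start; Ier2, Egr1, Nfkbiz, Gem, Zfp36l2 and Cebpd had no entry. Letters were searched on both strands, and a gene with several promoters counts where any of them holds the motif. The full cAMP response element TGACGTCA stood in 4 of 25 genes (16%), against 2.69% of 6572 genes on the array with a promoter and 1.77% of all 27025 genes. The shorter core TGACG, which every full element also holds on both strands, stood in 17 genes (68%), against 28.3% and 19.8%. A CArG box stood in 2 genes (8%), against 1.72% and 1.62%, and the letters TATAAA in 6 (24%), against 10.9% and 14.3%. These shares describe letters in this window and show no binding. Of the 4 genes that fell, 3 had a promoter, with 0 full elements and the core TGACG in Sf1. The promoters of 3 transcription factor genes are shown here as examples without a full element: Fos at chr12:85473640-85473889 on the plus strand, Nr4a1 at chr15:101266596-101266845 on the plus strand, and the third of 5 annotated for Egr2 at chr10:67537619-67537868 on the plus strand. Each runs 5′ to 3′ along the gene and ends at the base before the start, with capitals on TGACG or its reverse complement CGTCA, on TATAAA and on the CArG box (in Egr2).
Fos: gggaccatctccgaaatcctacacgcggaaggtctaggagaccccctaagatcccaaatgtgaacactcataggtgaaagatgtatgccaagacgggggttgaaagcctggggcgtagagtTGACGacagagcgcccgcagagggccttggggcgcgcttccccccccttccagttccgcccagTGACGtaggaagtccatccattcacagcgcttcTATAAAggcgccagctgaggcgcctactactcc
Nr4a1: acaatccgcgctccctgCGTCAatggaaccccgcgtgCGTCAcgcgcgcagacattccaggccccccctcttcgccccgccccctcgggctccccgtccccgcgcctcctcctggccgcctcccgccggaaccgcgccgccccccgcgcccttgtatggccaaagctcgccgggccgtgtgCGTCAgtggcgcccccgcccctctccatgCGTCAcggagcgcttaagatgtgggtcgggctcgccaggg
Egr2: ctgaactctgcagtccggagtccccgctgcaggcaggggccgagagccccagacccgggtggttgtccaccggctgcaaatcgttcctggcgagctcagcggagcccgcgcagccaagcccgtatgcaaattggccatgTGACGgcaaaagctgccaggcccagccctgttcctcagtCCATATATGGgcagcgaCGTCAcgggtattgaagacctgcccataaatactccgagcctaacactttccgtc
In Fos the core lies 129 and 66 bases before the start and TATAAA 33 bases before it. Nr4a1 holds 4 cores, starting 233, 213, 69 and 40 bases before the start, and Egr2 holds a CArG box 72 bases before it between cores at 111 and 55.

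Genes that end a kinase or cytokine signal rose as well. Of 20 measured feedback inhibitors of kinase, G protein and NF-kappa B signalling, 6 rose and 0 fell, and the median change over the list was 0.24. Dusp1, a phosphatase that inactivates MAP kinases in the nucleus, read 7.50, 7.53 and 7.59 under saline and 11.02, 11.40 and 11.15 under kainate. Its rise of 3.65 (SE 0.10), or 12.5-fold, was among the most precise, with saline arrays close to each other. Nfkbiz, a nuclear I-kappa B protein, went from 3.41, 3.45 and 3.38 to 6.98, 7.69 and 7.37, a rise of 3.93 (SE 0.54, limma adjusted p = 0.011). Rgs2, which speeds the inactivation of G alpha q, rose from 8.05, 8.27 and 8.58 to 10.59, 11.02 and 10.99, by 2.57 (SE 0.22). Zfp36, which binds AU-rich elements and destabilises cytokine mRNA, rose by 2.04 (SE 0.18). Errfi1, an inhibitor of the EGF receptor, rose by 1.89 (SE 0.10), and a dimmer probe set changed by 1.48 (SE 0.39, limma adjusted p = 0.375). Dusp6, a cytoplasmic phosphatase of ERK, rose by 1.24 (SE 0.13) from saline levels of 9.67 to 9.90. Zfp36l2, a relative of Zfp36 outside the list, rose by 1.66 (SE 0.23). Neither Ppp1r15a, which directs dephosphorylation of eIF2 alpha, at 1.09 (SE 0.32), nor Zfp36l1, at 1.01 (SE 0.29), passed. The other members of the list lay between -0.03 and 0.46, with Nfkbia and Socs3 at 0.13 and 0.04.

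The full element stood in the promoters of 2 of these inhibitors, Dusp1 and Errfi1, and the CArG box in Zfp36; they are shown for that, with the same capitals. Dusp1 lies at chr17:26508473-26508722 on the minus strand, Errfi1 (the second of 2 promoters) at chr4:150854820-150855069 on the plus strand and Zfp36 at chr7:28379229-28379478 on the minus strand.
Dusp1: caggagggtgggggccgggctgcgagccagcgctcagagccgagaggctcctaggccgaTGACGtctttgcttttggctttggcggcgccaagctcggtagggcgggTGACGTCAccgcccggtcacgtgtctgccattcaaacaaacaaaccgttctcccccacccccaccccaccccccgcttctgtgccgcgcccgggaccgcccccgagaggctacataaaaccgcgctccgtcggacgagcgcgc
Errfi1: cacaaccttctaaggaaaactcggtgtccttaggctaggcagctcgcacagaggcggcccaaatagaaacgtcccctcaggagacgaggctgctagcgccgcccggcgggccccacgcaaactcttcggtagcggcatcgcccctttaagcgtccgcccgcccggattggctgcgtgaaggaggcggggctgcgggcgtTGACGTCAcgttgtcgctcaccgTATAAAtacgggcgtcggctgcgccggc
Zfp36: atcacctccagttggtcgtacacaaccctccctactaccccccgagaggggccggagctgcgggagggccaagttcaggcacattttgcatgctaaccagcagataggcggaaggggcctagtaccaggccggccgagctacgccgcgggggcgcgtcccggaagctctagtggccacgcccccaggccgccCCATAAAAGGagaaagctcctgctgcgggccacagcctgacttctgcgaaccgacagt
TGACGTCA begins 143 bases before the start in Dusp1 and 51 bases before it in Errfi1, where TATAAA follows at 28 bases. The CArG box of Zfp36 begins 58 bases before the start.

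Of 18 growth arrest and DNA damage genes, 4 rose and 1 fell, and the median change over the list was 0.18. Btg2, an antiproliferative protein that recruits the deadenylase complex, read 5.26, 5.42 and 5.34 under saline and 9.83, 10.23 and 9.87 under kainate, a rise of 4.64 (SE 0.12) or 24.9-fold with a limma adjusted p of 5.50e-09. Its saline and kainate arrays are each tightly grouped and do not overlap. Gadd45g, a stress sensor that binds kinases of the p38 and JNK pathways, read 3.43, 5.62 and 5.98 under saline and 9.21, 9.91 and 9.58 under kainate. The rise of 4.56 (SE 0.67, adjusted p = 0.0166) is large but imprecise, and the first saline array lies more than 2 log2 units below the others. Tob1, a relative of Btg2, rose by 1.09 (SE 0.14). Plk2, a kinase that weakens synapses after long activity, went from 9.78, 9.94 and 9.89 to 10.52, 10.49 and 10.41, a rise of 0.60 (SE 0.09) and the smallest of all 31. Cdkn2d, the cyclin-dependent kinase inhibitor p19INK4d, fell by 0.47 on the log2 scale (SE 0.08, limma adjusted p = 0.0273). Gadd45b changed by 0.86 (SE 0.17, adjusted p = 0.113, and 0.0478 with the replicate block), Phlda1 by 1.04 (SE 0.31) and Cdkn1a, the p21 inhibitor, by 0.43 (SE 0.10). The relative Gadd45a stood at 0.06.

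The full element also stood in the promoters of Btg2, at chr1:134079156-134079405 on the minus strand, and Plk2, at chr13:110394794-110395043 on the plus strand, which are the steepest and the shallowest rise of the 4 genes that hold it.
Btg2: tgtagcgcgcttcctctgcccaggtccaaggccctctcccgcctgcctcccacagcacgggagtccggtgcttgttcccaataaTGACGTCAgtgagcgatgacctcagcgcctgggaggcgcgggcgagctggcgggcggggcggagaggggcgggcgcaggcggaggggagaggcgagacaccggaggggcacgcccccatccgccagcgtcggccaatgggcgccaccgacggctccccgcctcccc
Plk2: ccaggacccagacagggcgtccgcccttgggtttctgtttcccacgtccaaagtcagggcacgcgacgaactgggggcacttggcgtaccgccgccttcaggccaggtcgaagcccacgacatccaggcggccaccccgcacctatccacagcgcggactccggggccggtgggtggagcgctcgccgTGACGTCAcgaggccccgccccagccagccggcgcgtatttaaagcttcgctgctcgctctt
TGACGTCA begins 166 bases before the start of Btg2 and 62 bases before that of Plk2. The 4 genes with the full element thus rose by 4.64 (Btg2), 3.65 (Dusp1), 1.89 (Errfi1) and 0.60 (Plk2), which spans most of the range of the 31 genes.

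Of 33 measured synaptic, secreted and signalling effectors known to follow activity, 5 rose and 0 fell, and the median change over the list was 0.19. Ptgs2, the inducible cyclooxygenase that makes prostaglandin precursors, went from 6.37, 6.44 and 6.96 to 10.35, 11.22 and 11.45, a rise of 4.42 (SE 0.30) or 21.4-fold. The first kainate array is the lowest of its group, and still lies far above the saline arrays. Ccn1, a secreted matrix protein also named Cyr61, rose by 2.72 (SE 0.10) from near the bottom of its range (3.65 to 3.80). Gem, a small GTP-binding protein that limits calcium channels, rose by 1.79 (SE 0.22), with kainate arrays at 6.01, 5.13 and 5.74. Rasl11b, a small GTPase of the Ras superfamily, went from 9.21, 8.93 and 9.08 to 10.41, 10.49 and 10.36, a rise of 1.35 (SE 0.09, limma adjusted p = 1.40e-05). Sgk1, a kinase induced by serum and glucocorticoids, rose by 0.65 (SE 0.10) from an already high level (10.82 to 10.94). Genes of this list that did not pass include Bdnf, the neurotrophin, which read 10.02, 10.75 and 10.75 under saline and 10.97, 11.69 and 11.40 under kainate (0.85, SE 0.27, adjusted p = 0.505). With the replicate number as a block it passed (limma adjusted p = 0.00659). Its groups do not overlap, though the first kainate array lies just above the higher saline arrays. Nptx2, a secreted pentraxin that clusters AMPA receptors, changed by 1.24 (SE 0.42, adjusted p = 0.579), Tiparp, a mono-ADP-ribosyltransferase, by 1.15 (SE 0.21, adjusted p = 0.0762), Ccn2 by 1.10 (SE 0.26) and Scg2, a precursor of secretory granule peptides, by 0.35 (SE 0.10).

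Of the 31 genes, 4 belonged to no list: Zfp36l2 (above), Dnajb9, Sertad1 and Cited2. Dnajb9, a co-chaperone of the endoplasmic reticulum, read 8.43, 8.37 and 8.52 under saline and 9.67, 9.91 and 9.52 under kainate, a rise of 1.26 (SE 0.19, limma adjusted p = 0.0195), and its dimmer probe set changed by 0.79 (adjusted p = 0.703). Sertad1, a regulator of E2F and cyclin-dependent kinase 4, rose by 1.20 (SE 0.13). Cited2, a transcriptional coregulator that binds CBP and p300, rose by 1.15 (SE 0.18).

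A list of 36 measured genes known as CREB targets, which overlaps the lists above, held 15 genes that rose, 0 that fell and 21 that did not pass. Its median change in the mutants was 0.83, against -0.02 over all probe sets, and its mean level per array was 6.19 to 6.22 under saline and 7.72 to 7.81 under kainate. In controls 17 of the 36 rose, the median change was 0.99, and the mean level per array was 6.30 to 6.39 under saline and 7.95 to 8.21 under kainate, so the mutant arrays lay below the control arrays under both treatments. The 15 were Fos, Btg2, Dusp1, Ier2, Nr4a1, Junb, Rasl11b, Fosb, Ptgs2, Egr1, Rgs2, Atf3, Gem, Cebpb and Klf4. Among those that did not pass, Per1, a clock gene with well studied CREB sites, read 8.27, 8.14 and 7.94 under saline and 9.16, 8.85 and 8.75 under kainate (0.80, SE 0.22, adjusted p = 0.377), and the neuropeptide genes Penk, Tac1, Sst and Pdyn stood at 0.40, 0.49, 0.08 and -0.01. The list was drawn from general knowledge of CREB with earlier results of these data known, so its counts and levels are not independent of them. It says nothing of what drives a gene in these animals.

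**Figure D3:**
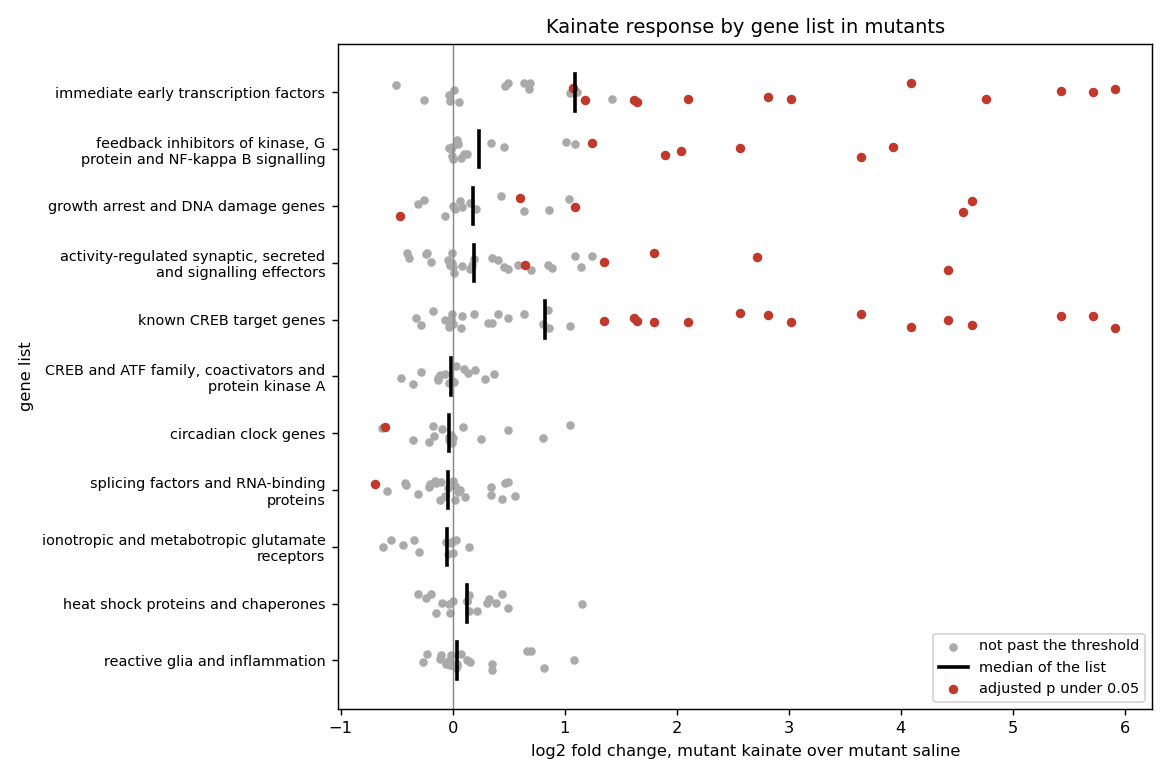
Change after kainate in the mutants (horizontal axis, log2 fold change) of each measured gene of 11 lists (vertical axis), with red points past an adjusted p of 0.05 and black bars at the median of a list. The immediate early transcription factors (median 1.09) and known CREB targets (0.83) lie to the right, and the medians of the other lists lie between -0.05 and 0.24.

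Few genes passed as lower, and these fell by less than 1 on the log2 scale. Of 12422 probe sets, 21 had a change below -1, none of which passed, and 58 had a change above 1. Adam28, a membrane metalloprotease, read 7.33, 7.52 and 7.56 under saline and 6.60, 6.62 and 6.71 under kainate, and fell by 0.83 (SE 0.14, limma adjusted p = 0.0364). Sf1, a splicing factor that recognises the branch point, fell by 0.69 (SE 0.10, adjusted p = 0.0196) on its brighter probe set, with 5.78, 5.94 and 5.78 under saline and 5.09, 5.15 and 5.18 under kainate, and the dimmer probe set stood at -0.03. Tef, a PAR bZIP factor of the circadian output, went from 9.73, 9.76 and 9.77 to 9.21, 9.02 and 9.23, a change of -0.60 (SE 0.10, adjusted p = 0.0364). Cdkn2d went from 8.63, 8.83 and 8.75 to 8.28, 8.28 and 8.23. The 4 genes do not overlap between groups. Of 17 measured clock genes Tef was the only member past the threshold, and Nr1d2 stood at -0.63 (adjusted p = 0.83). Of 25 splicing factors and RNA-binding proteins Sf1 was the only member past it; Hnrnpdl stood at 0.55 (adjusted p = 0.341, and 0.0207 with the replicate block) and Rsrp1 at -0.43.

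Calls near the threshold depended on single arrays. Leaving out each of the 12 arrays in turn kept the call of 23 of the 31 rises, while the other 8 and all 4 falls lost it without at least 1 array. Zfp36l2 lost its call without mutant kainate replicate 2 (adjusted p = 0.0738), and Gadd45g without mutant kainate replicate 2 (0.101) or 3 (0.0772). Nfkbiz lost it without replicate 2 or 3 of either mutant group, with adjusted p from 0.0508 to 0.0732. Klf4 and Dnajb9 lost it when any single mutant saline array or mutant kainate replicate 1 or 2 was left out, with adjusted p up to 0.0941 and 0.123. Sgk1 and Plk2 lost it when any single mutant array or control saline replicate 3 was left out (up to 0.144 and 0.132). Cited2 lost it when control saline replicate 2 or any single mutant array but saline replicate 1 was left out (up to 0.144). Among the falls, Sf1 lost its call when any single mutant array was left out (up to 0.144), and Adam28 when any single mutant array or control saline replicate 2 was (up to 0.222). Tef lost it when any single mutant array, control saline replicate 2 or 3 or control kainate replicate 2 was left out (up to 0.216). For Cdkn2d it was the same arrays except mutant saline replicate 1 (up to 0.211), and for the probe set 160469_at any single array except control kainate replicate 1 or 3 (up to 0.254). With the replicate number as a block, the limma adjusted p was 0.0506 for Sgk1, 0.0603 for Cdkn2d and 0.0609 for Tef. In every one of these fits the direction of the 35 genes stayed the same.

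Values just outside the threshold were close to those just inside. Besides Ier3, the nearest were Nfib, a nuclear factor of glia and neurons (-0.71, adjusted p = 0.0506, and -0.46 on a brighter probe set), Tsc22d1 (0.45), Ldb1, a LIM domain cofactor (-0.51), Shroom3 (0.55) and Lsm1, of the mRNA decapping complex (-0.58). Hba-a1, the alpha globin of red cells, went from 10.45, 9.94 and 10.41 to 10.82, 11.17 and 11.12 (0.77, SE 0.14, adjusted p = 0.0642). Blnk, an adaptor of B cells, changed by 0.64 (adjusted p = 0.0808) on 1 probe set and by 0.05 on the other. Cd14, a coreceptor of lipopolysaccharide on myeloid cells, went from 5.79, 5.81 and 5.66 to 6.46, 6.91 and 7.14 (1.08, SE 0.21, adjusted p = 0.0867).

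The genes of the CREB pathway itself did not pass. Of 16 measured members of the CREB and ATF family, coactivators and protein kinase A, 0 passed and the median was -0.02. As 0.298% of all probe sets passed, a count of 0 here and in the lists below is near that share. Such a count does not show that a list was unchanged. Creb1 changed by -0.02, -0.03 and -0.03 on its 3 probe sets and Crem by -0.02 and -0.07 (SE 0.10 on both). Crem, which carries an inducible internal promoter, read 4.33, 4.21 and 4.26 under saline and 4.16, 4.12 and 4.31 under kainate on its brighter probe set, so the groups overlap. Prkaca, the catalytic subunit of protein kinase A, changed by -0.46 (SE 0.11, adjusted p = 0.252). Of 12 glutamate receptor genes 0 passed, and Gria2, an AMPA receptor subunit, stood at -0.35. Of 19 heat shock proteins and chaperones 0 passed: Dnajb1, a co-chaperone of Hsp70, went from 7.45, 7.96 and 7.87 to 9.25, 9.08 and 8.40 (1.15, SE 0.25, adjusted p = 0.17) and Hspa5, the chaperone BiP, changed by 0.44. Of 22 genes of reactive glia and inflammation 0 passed, with Gfap at 0.35 and Il1b and Tnf at -0.01 each.

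Markers of the cell types in the tissue did not pass either. In each of 8 marker lists, 0 genes of 8 astrocyte, 8 oligodendrocyte, 11 microglial, 11 endothelial and blood, 4 choroid plexus, 8 neuronal, 8 interneuron and 10 principal neuron markers passed. Only 0.298% of all probe sets passed, so a count of 0 in such short lists is near that share. It is no result about the markers. Neuronal markers were bright, with Snap25, of the synaptic fusion machinery, at 13.36, 13.58 and 13.51 under saline and 13.38, 13.31 and 13.29 under kainate. The mean of the endothelial and blood markers was 6.00 to 6.08 on the saline and 6.20 to 6.38 on the kainate arrays of the mutants, which do not overlap. Genes that rose here are also known in vessels (Ccn1, Ptgs2), and the part of this shift in their rises was not tested. Choroid plexus markers ranged from 6.74 to 7.84 in saline and 7.05 to 7.75 in kainate arrays. Map2, a dendritic protein, read 6.09, 7.70 and 7.81 under saline and 5.36, 4.72 and 5.13 under kainate (-2.13, SE 0.47, adjusted p = 0.185), the lowest change of all neuronal markers, whose median was -0.15. The mean of these markers was 10.1 to 10.5 on the saline and 9.67 to 10.2 on the kainate arrays, which overlap. Between genotypes, the mean of the microglial markers was 7.21 to 7.64 over the 6 mutant arrays and 6.47 to 6.68 over the 6 control arrays. The part of this in the differences from controls was not tested.

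Most of the response was shared with the controls. Of the 31 genes that rose in mutants, 23 also rose in controls (74.2%), where 30 genes rose (76.7% shared). All 31 had a change above 0 in controls, as did 63.5% of all probe sets there (38.1% in mutants). The controls had 41 probe sets past the threshold (0.33%), 35 higher (0.282%) and 6 lower (0.0483%), and 915 at an unadjusted p under 0.05 (7.37%), of which 244 were higher (1.96%) and 671 lower (5.4%). The median change of the 31 genes was 2.04 in mutants and 1.83 in controls; they were chosen by the mutant response, which favours the former. Cdkn2d and Tef, 2 of the 4 falls, also fell in controls, with changes of -0.52 and -0.71. A difference in response between genotypes, tested as mutants minus controls, passed for 0 of 12422 probe sets (0%) by limma, and 107 had an unadjusted p under 0.05 (0.861%), 72 larger in mutants (0.58%) and 35 smaller (0.282%).

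**Figure D4:**
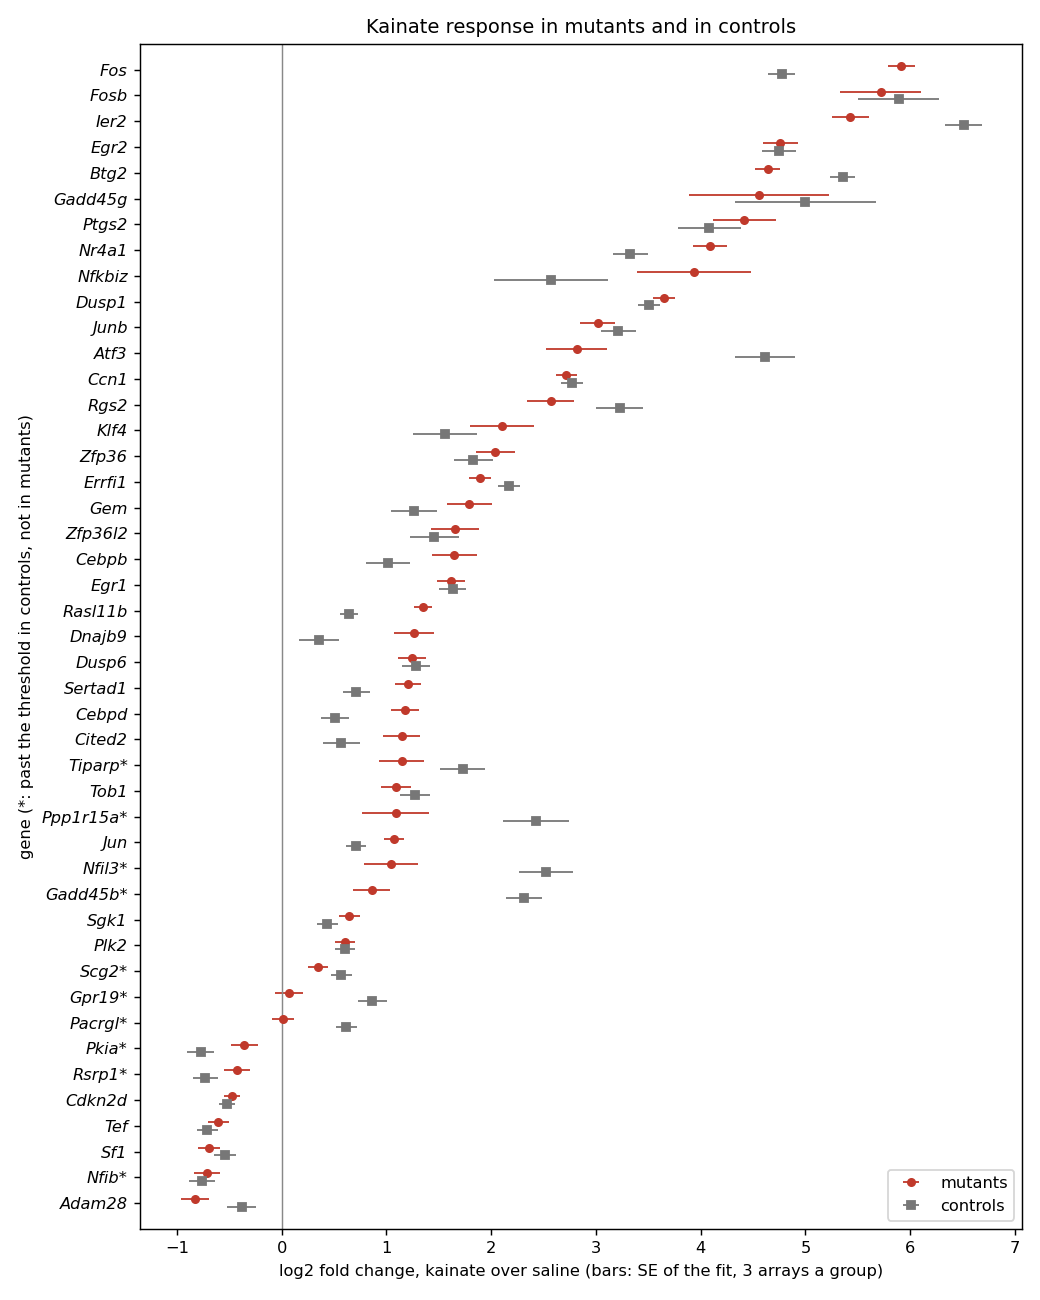
Change after kainate (horizontal axis, log2 fold change) in mutants (red circles) and controls (grey squares), with bars for 1 SE of the fit on 3 arrays a group, for the 35 genes past the threshold in mutants and the 10 past it in controls alone (starred; vertical axis). The values of Egr2, Egr1 and Plk2 nearly coincide, while Fos and Rasl11b lie higher in mutants and Atf3, Gadd45b and Gpr19 lie higher in controls.

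The 31 genes were chosen by the mutant response, which favours a larger response in mutants. Of them, 11 had an unadjusted limma p under 0.05 for the difference, with 8 larger and 3 smaller in mutants. Fos differed most clearly among the larger ones: its change was 5.92 in mutants and 4.77 in controls, a difference of 1.14 (SE 0.19, 95% interval 0.73 to 1.55, adjusted p = 0.333). The kainate arrays were alike, at 12.89 to 13.19 in mutants and 12.98 to 13.13 in controls. The saline arrays were not, at 6.89 to 7.29 in mutants and 8.05 to 8.40 in controls, a genotype difference of -1.16 (SE 0.13, limma adjusted p = 0.00809). Nr4a1 was also lower in mutants at saline, by a difference of -1.33 (adjusted p = 0.0126), and its difference in response was 0.76 (SE 0.23). Its kainate arrays lay lower in mutants too, at 10.32 to 10.65 against 10.95 to 11.16 (-0.57, adjusted p = 0.428). Ier2 had a saline level 1.32 higher in mutants (adjusted p = 0.0205) and a difference in response of -1.08 (SE 0.25). These were the 3 genes of the 35 whose saline levels differed between genotypes, and 17 of all 12422 probe sets did (0.137%). The 35 were chosen on the mutant saline arrays too, so their count is not comparable with that share. With each array left out Fos kept the call of its saline level. Nr4a1 lost it without control saline replicate 1 or 2 or mutant saline replicate 3 (adjusted p up to 0.0681), and Ier2 when any single mutant saline array or control saline replicate 1 or 2 was left out (up to 0.131). Rasl11b rose by 1.35 in mutants and by 0.64 in controls, a difference of 0.71 (SE 0.12, 95% interval 0.44 to 0.98, adjusted p = 0.333), and its mutant kainate arrays (10.36 to 10.49) lay above the control kainate arrays (9.88 to 9.96), a level difference of 0.49 (adjusted p = 0.0449, and 0.07 with the replicate block). That level call was lost when any single array but mutant saline replicate 1 was left out (up to 0.234).

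In the other direction, Atf3 was lower in mutants after kainate. Its mutant kainate arrays reached 6.92 to 7.50 and its control kainate arrays 8.22 to 9.58 from like saline levels, so that it changed by 2.82 and 4.61, a difference of -1.80 (SE 0.41, unadjusted p = 0.00117). Another probe set of Atf3 gave 0.28 and 1.95. Gadd45b went to 6.54 to 6.75 in mutants and 7.81 to 8.68 in controls, with changes of 0.86 and 2.32 and a difference of -1.46 (SE 0.24, 95% interval -2.00 to -0.92, adjusted p = 0.333). Gpr19, an orphan receptor, changed by 0.07 in mutants and 0.87 in controls (-0.80, SE 0.19). Without the third kainate array of the controls, the difference passed for 5 probe sets, all lower in mutants: both of Atf3 named here (-2.19 and -1.83), Gadd45b (-1.66), Gpr19 (-0.97) and 102102_at (-0.94), each with a limma adjusted p of 0.0248. With all arrays their adjusted p was 0.333 or 0.939, so these calls rest on leaving out that array, and 102102_at was chosen after its values were seen. Among the genes that passed in controls alone, the changes in mutants and controls were 1.04 and 2.52 for Nfil3, 1.09 and 2.43 for Ppp1r15a, 1.15 and 1.73 for Tiparp, 0.35 and 0.57 for Scg2, 0.02 and 0.62 for Pacrgl, -0.36 and -0.77 for Pkia, -0.43 and -0.73 for Rsrp1 and -0.71 and -0.76 for Nfib. With all arrays 0 of these differences in response passed, so the responses of the 10 genes are not shown to differ between genotypes.

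Levels after kainate, compared directly between genotypes, passed for 44 of 12422 probe sets (0.354%). The 10 genes past the threshold in controls alone were chosen from the same kainate arrays. For genes that rose, that choice favours a lower level in mutants. Of the 10, 4 were lower in mutants after kainate, a count not comparable with the share of all probe sets. The difference was -1.58 for Gadd45b (SE 0.17, limma adjusted p = 0.00465), -1.62 for Nfil3 (SE 0.25, adjusted p = 0.0309), -0.81 for Gpr19 (SE 0.14, adjusted p = 0.0382) and -0.70 for Pacrgl (SE 0.10, adjusted p = 0.0243). Of the 35 genes past it in mutants, the level differed for 2, Rasl11b (above) and Atf3. These genes were chosen on the mutant kainate arrays, so that count is not comparable with the share either. Atf3 was lower in mutants by a difference of -1.75 (SE 0.29, limma adjusted p = 0.0382). Gadd45b kept this call with each array left out (adjusted p up to 0.037). Pacrgl lost it without mutant saline replicate 2 or 3, control kainate replicate 2 or any single mutant kainate array (up to 0.111). Nfil3 lost it when any single array except control kainate replicate 3, mutant saline replicate 1 or mutant kainate replicate 1 was left out (up to 0.0955). Atf3 and Gpr19 kept it only without control kainate replicate 3 (adjusted p = 0.00188 for both), and not in the other 11 fits (up to 0.191 and 0.209).

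For several genes with large rises the responses lay close. The difference was 0.01 for Egr2 (95% interval -0.51 to 0.53), -0.17 for Fosb (-1.39 to 1.05), 0.14 for Dusp1 (-0.18 to 0.47) and 0.33 for Ptgs2 (-0.61 to 1.28). For Gadd45g, another large rise, it was -0.44 with a wider interval (-2.54 to 1.65). The intervals of Fosb, Ptgs2 and Gadd45g reach past 1. Equal responses were not tested for any of these genes.

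Across the arrays, the 31 genes rose between all mutant arrays of the same number, as they must since their groups do not overlap. Their median change was 2.34 between the arrays numbered 1, 2.11 between those numbered 2 and 1.87 between those numbered 3. Gene by gene the order was another: the change was largest for 10, 15 and 6 genes and smallest for 12, 6 and 13. The second kainate array was the highest of its group for 18 of the 31 genes and the third the lowest for 15. On saline the highest array was spread evenly, with 10, 11 and 10 genes. The spread within groups was small beside the rises, which the choice of these genes by p favours. The median SD of 3 arrays was 0.13 under saline and 0.18 under kainate, and the largest were 1.38 for Gadd45g under saline and 0.58 for Ptgs2 under kainate.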

How the data were processed

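RNA from pooled hippocampi was hybridised to 12 Affymetrix mouse arrays, 3 in each of 4 groups. The deposited values are log2 levels that the authors computed by GCRMA under R 2.4.1, per the submitters' processing notes. This method corrects background by probe sequence, equalises distributions and summarises probes, which compresses low values. Its version and the joint handling of arrays are not given in the sources used here. The number of arrays limits the precision.

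After removal of 66 control probe sets from 12488, the remaining 12422 were tested without a level filter. Platform annotation, updated by RefSeq (GRCm38.p6), gave 1 symbol to 10833, several to 396 and none to 1193. Limma 3.58.1 in R 4.3.3 fitted 1 mean per group to 12 arrays, with two-sided tests and Benjamini-Hochberg adjustment over all probe sets at 0.05, after testing on simulated data. P-values measure the spread between these pools.

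Named are all genes past the threshold, by their brightest probe set past it, the 10 nearest outside, Creb1 and Crem, genes past it in controls alone and up to 4 members per list with the smallest p. Further list members were named for their known roles after their values were seen. The comparison, members and lists were chosen with earlier results of these data known. Replicate numbers come from the titles. Deviations of same-numbered mutant arrays correlated at 0.408 to 0.625. The value was 0.506 between mutant saline replicate 2 and kainate replicate 3, and 0.300 between saline replicate 3 and kainate replicate 2. Only replicate 1 stood apart, so pairing by number is not shown for replicates 2 and 3. The replicate block treats equal numbers as matched all the same. Alternatives covered the replicate block, a batch term for replicate 1, replicates 2 and 3 alone, quantile normalisation, centring, a level filter, an intensity trend, mutant arrays alone, averaging per gene, array weights, a 1.5-fold minimum and single arrays left out.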

Additional observations from a re-analysis of the deposited data

How the results depend on the processing

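Of 31 rises, 16 kept their call in every alternative that tested them and 21 in all but the test against a fold of 1.5; 0 of the 4 falls did. Of the 35 genes past the threshold, 0 reversed. With the replicate block 44 probe sets passed (39 higher, 5 lower), and among the named genes it changed no call of the mutant response beyond the 8 given with their values (Sgk1, Cdkn2d and Tef lost, Ier3, Gadd45b, Klf2, Bdnf and Hnrnpdl gained). The alternatives for levels between genotypes were added after seeing the data. Fitted to the mutant arrays only, the replicate block gave 120 (80 higher, 40 lower), an alternative chosen after seeing the data. Replicate 1 as a batch term gave 64 (48 higher, 16 lower), replicates 2 and 3 only 94 (43 higher, 51 lower; 45.7% higher against 89.2%) and array weights 1619 (753 higher, 866 lower), with weights from 0.0321 to 6.17. A fold of at least 1.5 left 19, all higher, and 0 lower. Quantile normalisation gave 8 lower of 48, centring 1 lower of 27, and an intensity trend with a robust prior 1 lower of 36. The cause of these shifts was not tested. Leaving out 1 array gave 26 to 51 called, 26 to 44 higher and 0 to 9 lower, and 0 to 5 for the difference between genotypes, for which array weights gave 8.

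Of the targeted genes, the small changes that crossed 0 were Crem 100533_s_at (0.0093 with replicates 2 and 3, 0.028 centred, 0.016 weighted), Creb1 102671_at (0.014, 0.016 and 0.0061), Creb1 102672_g_at (0.021, 0.027 and 0.018, and 0.0073 after quantile normalisation), Creb1 102673_at (0.016 centred) and Crem 160526_s_at (0.0088 weighted). The difference for Egr2 became -0.068 with replicates 2 and 3, -0.032 after quantile normalisation and -0.23 weighted. Leaving out 1 array moved Gpr19 between -0.012 and 0.12, Crem 100533_s_at between -0.042 and 0.019, and Creb1 between -0.054 and 0.0016 (102671_at), -0.037 and 0.010 (102672_g_at) and -0.057 and 0.0016 (102673_at). It moved the difference of Egr2 between -0.15 and 0.17, of Fosb between -0.54 and 0.24 and of Gadd45g between -1.23 and 0.23. Among list members named near 0, Pdyn crossed it in 7 alternatives, Il1b in 6, Tnf in 5 and Gadd45a in 1, and the flat second probe sets of several genes crossed it as well. With 3 pools a group and compressed low values, small changes of dim probe sets are not resolved.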
